A study of Mus musculus with 23 samples.

Results

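This account follows 5 genes, Ccl2, Cxcl12, Ppbp, Vcam1 and Tnfrsf11b, out of 8683 genes measured in mouse A404 cells at 4 points of a protocol that turns them towards smooth muscle. They were picked by name, with their values over all 4 points already in view. Their differences between groups are therefore described here and not tested. Each gene was read by the probes that carry its symbol alone, 6 probes in all: 2 for Cxcl12, which were averaged, and 1 for each of the others. The working name under which they were gathered, chemokines and vascular adhesion genes after selection, covers them only in part. Tnfrsf11b encodes neither a chemokine nor an adhesion molecule, and Ppbp was lower, not higher, after selection.

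A404 is 1 clone of the P19 embryonal carcinoma line, and as background its puromycin resistance gene is driven by the Acta2 promoter, so cells that switch on smooth muscle alpha-actin survive the drug. The Control group held undifferentiated cells harvested near confluence (n = 6 arrays). RA48 cells had 48 h in 1 µmol/L all-trans retinoic acid (n = 5) and RA96 cells 96 h (n = 6), both from plates started at lower density. Puromycin cells were kept in puromycin for 48 h after the 96 h in retinoic acid (n = 6). They are called selected cells below. No group had this longer culture without the drug. Selection, exposure to the drug and the added 48 h therefore cannot be told apart in Puromycin versus RA96. Whether retinoic acid stayed in the medium during selection is not given. Each array set red-labelled cell RNA, pooled from 5 to 6 plates, against green-labelled RNA of whole embryos of day 17.5. Separate cultures are not stated for the replicates, and p-values then measure only how these arrays vary, which may be technical.

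Chemokines are small secreted proteins that draw cells along a gradient by binding G-protein-coupled receptors, and they fall into classes by the spacing of their first cysteines. Ccl2 is a CC chemokine that attracts monocytes through the receptor Ccr2. Cxcl12 is a CXC chemokine of stromal and mesenchymal cells that binds Cxcr4 and the scavenging receptor Ackr3, and Ppbp is a CXC chemokine precursor best known from platelets, whose processed form attracts neutrophils through Cxcr2. Vcam1 is an adhesion molecule of activated vessel walls, smooth muscle included, which leukocytes grip with the integrin made of Itga4 and Itgb1. Tnfrsf11b encodes osteoprotegerin, a secreted decoy receptor made by vascular smooth muscle and osteoblasts among other cells, which captures Tnfsf11 (RANKL) before it can reach its receptor Tnfrsf11a (RANK) and also binds Tnfsf10 (TRAIL).

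All levels below are log2 ratios of cell RNA over embryo RNA, but whether the ratios were centred is not stated, so a level of 0 need not equal the embryo pool, and levels of different genes cannot be ranked against each other. The folds rest on reading the deposited logarithms as base 10, which the sources used here do not state. In bulk RNA of this kind, a change in the share of cells that express a gene and a change in RNA per cell cannot be told apart.

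A split of the arrays into 2 sets, not named in the labels and found from the values themselves, ran through all 4 groups (48.9% of the variance within groups). The first set held 3 Control, 3 RA48, 2 RA96 and 3 Puromycin arrays, and the second the remaining 12. It followed the replicate numbers: replicates 1 to 3 of each group lay in the first set and later ones in the second, except RA96 replicate 2. What the sets stand for is not stated. Differences of the 5 genes are therefore also given within each set. Between Puromycin and Control, where 24.6% of all genes rose and 28.6% fell, 11 of 13 smooth muscle markers rose and 0 fell, and 5 of 8 pluripotency markers fell and 0 rose. Acta2, the smooth muscle alpha-actin gene, averaged 2.40 ± 0.26 in Puromycin cells and -4.90 ± 0.65 in Control cells (SD, n = 6 each), and Sox2, a pluripotency factor, -0.60 ± 0.55 and 5.09 ± 1.56. Myh11, the smooth muscle myosin heavy chain that marks mature cells, did not pass the test in that comparison (0.19 ± 0.57 SE, limma adjusted p = 0.813). Selected cells did not pass for Acta2 against RA96 cells either, at 2.40 ± 0.26 in Puromycin and 1.87 ± 0.13 in RA96 arrays (difference 0.52 ± 0.21, adjusted p = 0.163, and 0.0302 with the array set as a block), although the groups did not overlap. Between these groups Cald1, a caldesmon of the contractile apparatus, was the 1 smooth muscle marker of 13 that rose (0.59 ± 0.12, adjusted p = 0.00427), a call lost within the first set (adjusted p = 0.0787) and by 1 of its probes (0.27, adjusted p = 0.52). With the array set as a block 4 of the 13 rose, Acta2, Cald1, the actin gene Actg2 and the tropomyosin gene Tpm2. With that block 1 fell, Mylk, the myosin light chain kinase (-1.33, adjusted p = 8.04e-05). Tpm2 and Mylk were named after their values were seen. Without the block Mylk did not pass (-1.75 ± 0.75, adjusted p = 0.216), and its groups overlapped. Cnn1, a smooth muscle calponin, rose by 1.17 ± 0.19 in Puromycin versus Control (adjusted p = 3.28e-05). Against RA96 it differed by -0.32 ± 0.19 (adjusted p = 0.446), and by -0.58 within the first set (adjusted p = 0.00477).

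**Figure D1:**
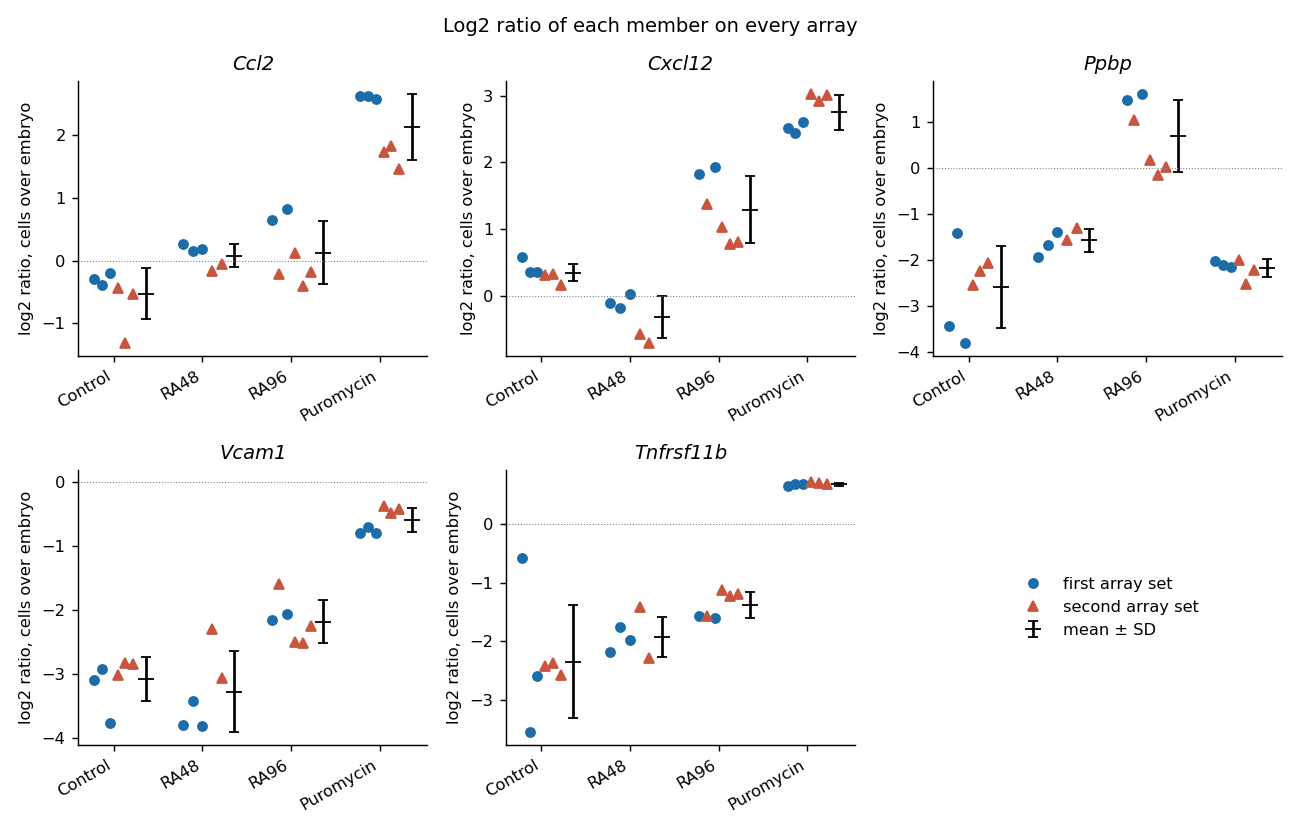
Log2 ratio of cell over embryo RNA for each of the 5 genes, with 1 point per array in time order from Control to Puromycin, circles for the first and triangles for the second array set, and the mean ± SD beside each group. In 4 panels the Puromycin arrays lie above all others, and in the Ppbp panel the RA96 arrays do.

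Ccl2 stayed near a log2 ratio of 0 in retinoic acid and was highest in the selected cells. The 6 Control arrays ran from -1.32 through a median of -0.41 to -0.20. The 5 RA48 arrays stood at 0.26, 0.15, 0.18, -0.17 and -0.06. In RA96 cells the lowest, median and highest arrays were -0.41, -0.04 and 0.82, and in Puromycin cells they were 1.45, 2.20 and 2.62. Puromycin arrays were thus all higher than every array of the other groups, while RA96 arrays covered the whole RA48 range and part of the Control range. The group means were -0.53 ± 0.40 in Control, 0.07 ± 0.18 in RA48, 0.13 ± 0.50 in RA96 and 2.13 ± 0.53 in Puromycin cells (SD). Control was the lowest group and lay below RA48 by a gap of only 0.03 between the nearest arrays, and RA48 and RA96, neighbours in the order, did not differ beyond their spread.

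Set against RA96, Puromycin cells had 2.13 and RA96 cells 0.13, a difference of 2.01 ± 0.24 (SE) or 4.02-fold. It was the 4th highest of the 8683 genes in this comparison, a rank given as a description since the genes were picked with these values in view. Within the first array set the difference was 1.86 and within the second 1.84, although the level itself differed between the sets: Puromycin arrays averaged 2.60 in the first set and 1.67 in the second, and RA96 arrays 0.73 and -0.18. Against Control the difference was 2.66 ± 0.24, with 2.89 and 2.43 within the sets. Of that distance 2.01 lay between RA96 and Puromycin and 0.60 between Control and RA48, while RA96 exceeded RA48 by 0.05 ± 0.25, with 0.53 in the first set and -0.06 in the second.

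Cxcl12, as the average of its 2 probes, was lower at 48 h than in Control cells and then higher at each later point, and on that average its 4 groups were fully separated. Control arrays lay between 0.17 and 0.58, with a median of 0.34. The RA48 arrays stood lower, at -0.11, -0.19, 0.03, -0.57 and -0.71. RA96 arrays ran from 0.77 through 1.21 to 1.93, and Puromycin arrays from 2.44 through 2.76 to 3.03. No 2 groups shared a value, so the order RA48, Control, RA96, Puromycin held array by array. The means in time order were 0.35 ± 0.13, -0.31 ± 0.31, 1.29 ± 0.51 and 2.75 ± 0.26.

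The dip at 48 h was -0.66 ± 0.19 (RA48 minus Control), with -0.52 and -0.91 within the first and second set. From RA48 to RA96 the difference was 1.60 ± 0.19, with 1.97 and 1.64 within the sets. Puromycin exceeded RA96 by 1.46 ± 0.19, a 2.75-fold difference and the 9th highest among genes. That last step depended on the set more than any other of this gene: it was 0.64 in the first set, where the Puromycin arrays averaged 2.52 and the 2 RA96 arrays 1.88, and 1.98 in the second, where they averaged 2.98 and 1.00. Against Control, Puromycin stood 2.40 ± 0.19 higher, or 5.29-fold.

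The 2 probes of Cxcl12 gave the same order of group means at different heights, but only probe 18208 separated all 4 groups. By probe 560 the RA96 arrays began at 1.29, inside the Control range of 1.18 to 1.72. Probe 560 averaged 3.35 ± 0.18 in Puromycin, 1.96 ± 0.65 in RA96, 0.68 ± 0.44 in RA48 and 1.42 ± 0.21 in Control cells. Probe 18208 averaged 2.15 ± 0.36 in Puromycin, 0.62 ± 0.36 in RA96, -1.30 ± 0.23 in RA48 and -0.72 ± 0.13 in Control cells. By the first probe the group means were above 0 throughout, and by the second they were below 0 in Control and RA48 cells, so the sign of the ratio depends on the probe. The difference of Puromycin from Control was 1.93 by probe 560 and 2.87 by probe 18208.

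**Figure D2:**
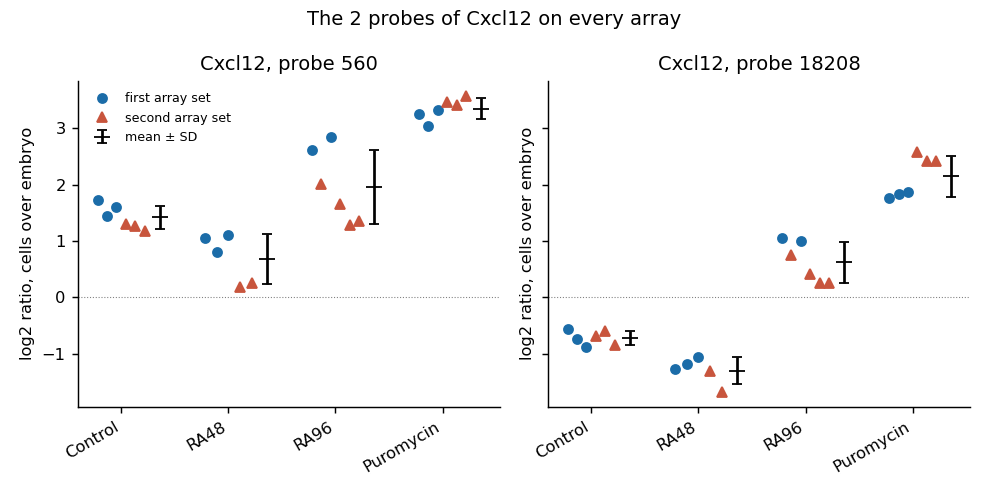
Log2 ratio of the 2 Cxcl12 probes on every array, in time order, with symbols for the array sets and the mean ± SD. Both probes are lowest in RA48 and highest in Puromycin cells, and probe 560 sits higher in every group, for example at a mean of 3.35 against 2.15 in Puromycin cells.

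Ppbp took another course: it was highest at 96 h of retinoic acid and back near its starting level after selection. Control arrays spread widely, from -3.82 through -2.40 to -1.41. The 5 RA48 arrays were -1.93, -1.67, -1.39, -1.56 and -1.29. RA96 arrays ran from -0.15 through 0.61 to 1.63, whereas the Puromycin arrays were close together, from -2.52 through -2.12 to -1.99. RA96 was above every array of the other 3 groups, and Puromycin and Control overlapped. The means in time order were -2.59 ± 0.89, -1.57 ± 0.25, 0.70 ± 0.78 and -2.17 ± 0.19.

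Puromycin stood 2.87 below RA96 on the log2 scale (-2.87 ± 0.34), or 7.32-fold lower, and no gene of the 8683 had a lower difference. Within the first set the difference was -3.65 and within the second -2.52. RA96 exceeded RA48 by 2.27 ± 0.36, with 3.23 and 1.70 within the sets, and Control by 3.29 ± 0.34, a 9.77-fold difference, with 4.44 and 2.56. The remaining difference between Puromycin and Control was 0.42 ± 0.34, with 0.79 and 0.04 within the sets, and moved between 0.17 without Control replicate 3 and 0.65 without Control replicate 2. Those are the lowest and the highest Control array, at -3.82 and -1.41.

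The bases before the start of the 2 CXC chemokine genes, Cxcl12 and Ppbp, are shown because only these were available among the 5 genes. They are the 250 bases before each RefSeq gene start in GRCm38.p6, on the plus strand, at chr6:117168285-117168534 for Cxcl12 and chr5:90768268-90768517 for Ppbp. Capitals mark matches, on either strand, to the searched motifs: the GC box GGGCGG, the TATA box TATAAA, the AP-1 motif TGANTCA, the CArG box that serum response factor recognises in smooth muscle genes, and the NF-kappaB consensus. Cxcl12 and Ppbp were the 2 of the 5 genes found in the RefSeq promoter table.
Cxcl12: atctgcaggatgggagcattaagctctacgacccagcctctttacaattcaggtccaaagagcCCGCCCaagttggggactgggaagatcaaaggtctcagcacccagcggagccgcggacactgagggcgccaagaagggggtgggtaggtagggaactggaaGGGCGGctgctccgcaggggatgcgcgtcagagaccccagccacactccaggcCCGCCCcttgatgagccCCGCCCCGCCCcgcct
Ppbp: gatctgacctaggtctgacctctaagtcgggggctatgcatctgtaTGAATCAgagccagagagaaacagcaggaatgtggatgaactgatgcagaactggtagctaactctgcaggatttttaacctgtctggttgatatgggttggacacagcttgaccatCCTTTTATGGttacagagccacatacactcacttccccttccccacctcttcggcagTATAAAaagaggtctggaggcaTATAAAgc

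The Cxcl12 window held 5 GC boxes, 2 of which share a base, and no match to the other motifs. The Ppbp window held 2 TATA boxes, of which the farther began 30 bases before the start, 1 AP-1 match and 1 CArG box, CCTTTTATGG, from 87 to 78 bases before the start. Of all 32851 promoter windows of this length, 32.7% held a GC box, 12.4% a TATA box, 6.75% an AP-1 match, 1.47% a CArG box and 3.9% the NF-kappaB consensus. A match is a run of letters only, and binding was not measured.

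Vcam1 had ratios below 0 in every group and was highest after selection. Control arrays ran from -3.76 through -2.96 to -2.83. RA48 arrays stood at -3.79, -3.41, -3.81, -2.29 and -3.06. RA96 arrays ran from -2.51 through -2.20 to -1.59, and Puromycin arrays from -0.80 through -0.59 to -0.38. Puromycin was above all other arrays, RA96 was above all Control arrays but overlapped RA48, and RA48 and Control could not be ordered. The means in time order were -3.07 ± 0.35, -3.27 ± 0.63, -2.18 ± 0.34 and -0.59 ± 0.19.

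The Vcam1 difference of Puromycin from RA96 was 1.59 ± 0.22, or 3.00-fold and the 8th highest among genes, with 1.35 and 1.79 within the first and second set. From Control, Puromycin differed by 2.48 ± 0.22, or 5.59-fold, with nearly the same 2.49 and 2.47 within the sets. RA96 exceeded RA48 by 1.09 ± 0.23, with 1.56 in the first set and 0.46 in the second, where the 2 RA48 arrays included the highest one at -2.29. RA48 and Control differed by -0.20 ± 0.23, with opposite signs in the sets (-0.42 and 0.22).

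Tnfrsf11b had overlapping levels before selection and was above 0 only in the selected cells. Control arrays ran from -3.55 through -2.50 to -0.58, where replicate 1 was the high one and the next array stood at -2.36. RA48 arrays were -2.18, -1.76, -1.97, -1.42 and -2.29, and RA96 arrays ran from -1.61 through -1.40 to -1.13. The 6 Puromycin arrays lay between 0.64 and 0.71, with a median of 0.68, the narrowest spread of the 20 combinations of gene and group described here. Only the Puromycin arrays were apart from the rest, and each pair of neighbours among the other groups overlapped. The means in time order were -2.35 ± 0.97, -1.93 ± 0.35, -1.38 ± 0.22 and 0.68 ± 0.02.

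Against RA96, Puromycin was higher by 2.06 ± 0.29, a 4.18-fold difference and the 3rd highest among genes, with 2.25 and 1.98 within the sets. From Control the difference was 3.03 ± 0.29, or 8.16-fold, and 3.38 without Control replicate 1. The steps before selection were smaller than the spread within Control: RA48 minus Control was 0.42 ± 0.31, moving to 0.77 without Control replicate 1 and to 0.18 without Control replicate 2, and RA96 minus RA48 was 0.54 ± 0.31.

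**Figure D3:**
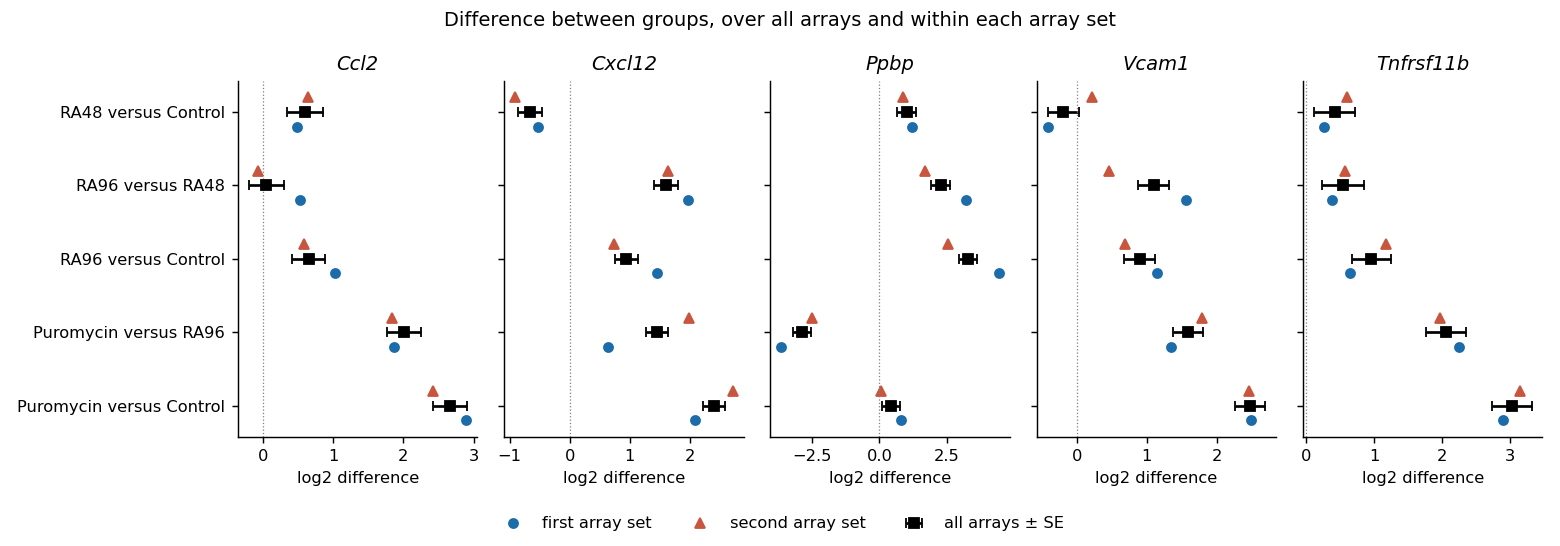
Log2 difference (first-named minus second-named group) of each gene in 5 comparisons, as a square with its SE over all arrays, a circle within the first and a triangle within the second array set. Puromycin versus RA96 is positive in both sets for 4 genes and negative in both for Ppbp, from -2.87 for Ppbp to 2.06 for Tnfrsf11b.

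Counted together, 4 of the 5 genes were higher in Puromycin than in RA96 arrays with no overlap, as were 2.84% of all 17863 rows, and 1 was lower, as were 1.76%. The same 4 lay above Control without overlap, where 13.8% of rows did. Nothing is read from these counts, since the genes were picked with the values in view. In RA96 versus Control 3 genes (Cxcl12, Ppbp and Vcam1) were higher without overlap, where 12.3% of rows were. In RA96 versus RA48 2 were (Cxcl12 and Ppbp), where 4.81% of rows were. RA48 versus Control had 1 higher, Ccl2, beside 9.35% of rows, and 1 lower, Cxcl12, beside 8.79%. These comparisons share arrays (Puromycin versus RA96 and versus Control share the Puromycin arrays, for example), so their counts are not independent of each other.

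Over the 23 arrays the genes other than Ppbp followed each other, with Pearson r from 0.78 (Ccl2 with Vcam1) to 0.90 (Cxcl12 with Vcam1), whereas Ppbp had r between -0.14 and 0.07 with them. These coefficients describe arrays that share 4 groups, 2 array sets and 1 embryo pool, and carry no test. The other genes were searched by the same measure, with clone and predicted names passed over. Among those kept, the profile most like that of Vcam1 was Lox, a collagen cross-linking enzyme (r = 0.95, with means of -4.80, -4.17, -3.17 and -1.18 from Control to Puromycin). Next came Il1r1, the interleukin-1 receptor (0.95), Clca3a1, a chloride channel accessory gene (0.95), and Cdo1, a cysteine dioxygenase (0.95). Clca3a1 also led the list for Tnfrsf11b (0.92), ahead of Arpc1b, an actin-nucleation subunit (0.92), Fat1, an atypical cadherin (0.91), and Igfbpl1 (0.91). Closest to Ccl2 were Serinc2 (0.95), Tspo, an outer mitochondrial membrane protein (0.94), Csnk1g3, a casein kinase (0.93), and Gfpt1, an enzyme of hexosamine synthesis (0.93). For Cxcl12 they were Tsc22d2 (0.95), Prkar2a, a regulatory subunit of protein kinase A (0.95), Igfbpl1 (0.94) and Nek7, a kinase (0.94). The peak of Ppbp at 96 h was matched less closely, by Sh3bgr (0.87), Rapgef5, an exchange factor for Rap proteins (0.86), Cldn6, a tight junction claudin (0.86), and Cgnl1, a junction protein (0.86).

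Of the 9 receptors and ligands looked for that pair with the 5 proteins, 7 were measured, and limma called 0 of them between Puromycin and RA96, with 0 at an unadjusted p under 0.05 (adjusted p from 0.496 for Ackr3 to 0.923 for Itgb1), where 5.27% of all rows were called at an adjusted p under 0.05. Ackr3 passed with the array set as a block (-0.64, adjusted p = 0.00387), within the first set (-0.95, adjusted p = 0.000483) and with the replicate block (adjusted p = 0.0431).

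Of the chemokine receptors, Ackr3 averaged 1.54 ± 0.56 in Puromycin, 2.02 ± 0.82 in RA96, 1.86 ± 0.41 in RA48 and 0.74 ± 0.37 in Control cells. It rose early, by 1.11 ± 0.33 in RA48 versus Control (adjusted p = 0.0138, 26% of rows called), whereas Cxcl12 was lower at that time. Puromycin versus Control gave 0.80 ± 0.31 for Ackr3 (adjusted p = 0.042), and leaving out any of Control replicates 4 to 6 or Puromycin replicates 1 to 3 ended that call. The groups overlapped over all arrays but not within a set. In the first set Puromycin arrays ran from 2.00 to 2.08 and Control arrays from 0.96 to 1.18. In the second they ran from 0.98 to 1.11 and from 0.27 to 0.58. Ccr2, the receptor of Ccl2, averaged 0.49 ± 0.27 in Puromycin and 0.08 ± 0.29 in Control cells (difference 0.41 ± 0.14, adjusted p = 0.0234), but the difference was 0.01 within the first set and 0.81 within the second, and the groups overlapped. The Ccr2 call ended without Control replicate 4, Control replicate 5 or Puromycin replicate 5 (adjusted p from 0.051 to 0.0647), and by either of its probes alone (0.0981 and 0.0541).

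The integrin partners of Vcam1 are a beta and an alpha chain. Itgb1, the shared beta chain, rose by 3.15 ± 0.26 in Puromycin versus Control (2.25 ± 0.47 and -0.90 ± 0.60, adjusted p = 1.77e-09, 46.3% of rows called), and this distance was reached by 96 h, since RA96 versus Control gave 3.06 ± 0.26 (adjusted p = 3.67e-09, 46.1% of rows called). Itga4, the alpha chain, averaged -1.01 ± 0.32 in Puromycin and -1.43 ± 0.11 in Control cells, a difference of 0.42 ± 0.12 (adjusted p = 0.00735) that was 0.70 within the first set and 0.14 within the second. That call was lost within the second set (adjusted p = 0.279) and after quantile normalization (0.23, adjusted p = 0.327).

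The RANK and TRAIL genes did not follow osteoprotegerin upward. Tnfsf11, the RANK ligand, was highest in Control cells: it averaged 0.25 ± 0.34 in Puromycin and 1.33 ± 0.50 in Control cells, and fell by 1.08 on the log2 scale (adjusted p = 0.000109) with no overlap between the groups. The fall was in place at 48 h, with 0.05 ± 0.19 in RA48 cells (adjusted p = 5.1e-05 against Control). Tnfrsf11a, the RANK receptor, fell by 0.50 in Puromycin versus Control (-1.08 ± 0.22 and -0.59 ± 0.18, adjusted p = 0.00428). Tnfsf10, the TRAIL ligand, averaged -0.26 ± 0.05 in Puromycin and -0.05 ± 0.45 in Control cells and did not pass (adjusted p = 0.444).

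**Figure D4:**
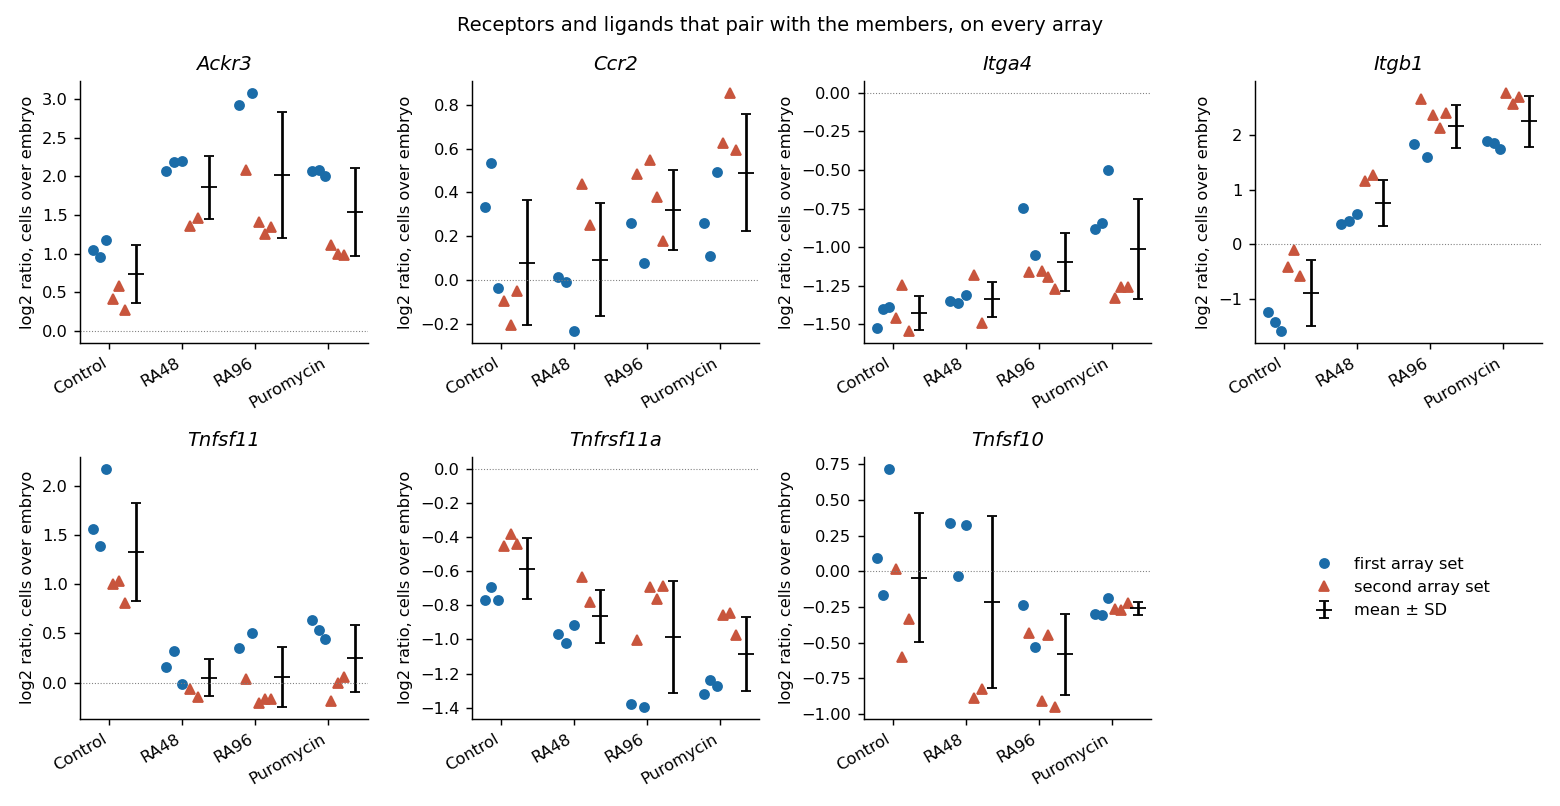
Log2 ratio of 7 receptors and ligands that pair with the 5 proteins, with 1 point per array in time order, circles and triangles for the array sets, and the mean ± SD. Itgb1 climbs up to RA96 and Tnfsf11 drops between Control and RA48, and in the fit over all arrays without a block none of the 7 was called in Puromycin versus RA96.

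Other members of the same families were counted from lists written from general knowledge, with the 5 genes left out. Between Puromycin and RA96, where 4.7% of all genes rose and 3.12% fell, 0 of 3 other chemokine ligands and 0 of 4 chemokine receptors were called in either direction, with 0 at an unadjusted p under 0.05. Of 24 genes of vascular and leukocyte adhesion 1 rose and 2 fell, and the median difference was -0.04, beside -0.01 over all genes. Cd44, the hyaluronan receptor, rose (0.60 ± 0.13, adjusted p = 0.00492), with 1 of its 3 probes going the other way (-0.22), and Itga3, an integrin alpha chain of laminin receptors, fell (-0.46 ± 0.09, adjusted p = 0.00316), with 1 of its 2 probes at 0.03 and the call lost within the second set (adjusted p = 0.0702). Itga9, a related integrin chain named after its values were seen, fell by 0.86 (adjusted p = 0.0196).

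In the TNF superfamily 2 of 19 genes rose and 1 fell, with a median of 0.01. Tnfrsf19, an orphan member of the receptor family, fell by 1.35 on the log2 scale, to -1.52 ± 0.31 in Puromycin cells against -0.17 ± 0.10 in RA96 cells (adjusted p = 1.62e-07), with -1.29 and -1.47 within the sets. Fas, a death receptor gene named after its values were seen, rose by 0.65 ± 0.15 (adjusted p = 0.012), with 0.25 and 0.95 within the sets, and Tnfrsf1a, the main TNF receptor, by 0.27 ± 0.08 (adjusted p = 0.0442). The Tnfrsf1a call was lost within either set, with only the compared groups in the fit (adjusted p = 0.0506) and in 16 of 23 fits with 1 array left out, where adjusted p reached 0.104 without RA96 replicate 5. The Fas call was lost within the first set (adjusted p = 0.343) and with only the compared groups (adjusted p = 0.0559).

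In the NF-kappaB pathway 2 of 21 genes rose and 0 fell (median 0.02). Il1r1 averaged 0.88 ± 0.09 in Puromycin and -0.17 ± 0.22 in RA96 cells, a rise of 1.05 ± 0.26 (adjusted p = 0.0149), with 1.02 and 1.03 within the sets. Nfkb2, a subunit of the factor itself, named after its values were seen, rose by 0.40 ± 0.10 (adjusted p = 0.0198). Among 14 inflammatory cytokines, their receptors and enzymes, 2 rose and 0 fell (median -0.10): Ptgs2, the inducible cyclooxygenase, also named after its values were seen, averaged 5.29 ± 1.36 in Puromycin and 2.86 ± 1.07 in RA96 cells (2.44 ± 0.53, adjusted p = 0.00655, groups overlapping), and Il4ra, an interleukin-4 receptor chain, rose by 0.29 ± 0.08 (adjusted p = 0.04). The Il4ra call was lost within the first set (adjusted p = 0.282) and in 10 of 23 fits with 1 array left out, where adjusted p reached 0.101 without Puromycin replicate 1.

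Against Control the same lists moved more, as did the whole array (24.6% of all genes rose and 28.6% fell). Of the 24 adhesion genes 10 rose and 7 fell, led by Itgb1, Cd44 (2.81 ± 0.13) and Mcam, an adhesion molecule of smooth muscle and endothelium (1.98 ± 0.12). The integrin chains Itga6 (-1.05), Itgb5 (-1.01) and Itga2 (-0.69) fell most. In the TNF superfamily 5 of 19 rose and 4 fell, with Tnfrsf12a, the TWEAK receptor (3.47 ± 0.12), and Fas (2.92 ± 0.15) in front. With the array set as a block 5 of the 19 rose and 9 fell. Of 21 NF-kappaB pathway genes 11 rose and 1 fell (median 0.43, beside -0.06 over all genes), among them Il1r1 (2.60 ± 0.26), Irak2, a kinase of interleukin-1 signalling (2.05 ± 0.22), and Nfkbia, the inhibitor that NF-kappaB itself induces (2.00 ± 0.15). Of the 14 cytokine genes 7 rose and 3 fell, with Ptgs2 (4.86 ± 0.53) and Osmr, the oncostatin M receptor (2.81 ± 0.31), rising most. The highest adjusted p among the genes named so far in this comparison of lists was 0.000203 (Itga2). Of 3 other chemokine ligands 1 rose, Ccl9, a CC chemokine of mice (0.99 ± 0.33, adjusted p = 0.0183). It averaged -0.46 ± 0.42 in Puromycin and -1.45 ± 0.50 in Control cells, but stood at -0.10 ± 0.43 in RA96 cells. Unlike for Ccl2, the Puromycin and RA96 groups overlapped for Ccl9, and their difference did not pass (-0.37 ± 0.33, adjusted p = 0.668). Much of the movement of the lists was in place at RA96 versus Control, where 46.1% of rows were called. There 11 adhesion genes rose and 5 fell. The TNF superfamily had 6 and 6, the NF-kappaB pathway 10 and 0, and the cytokine list 6 and 2.

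**Figure D5:**
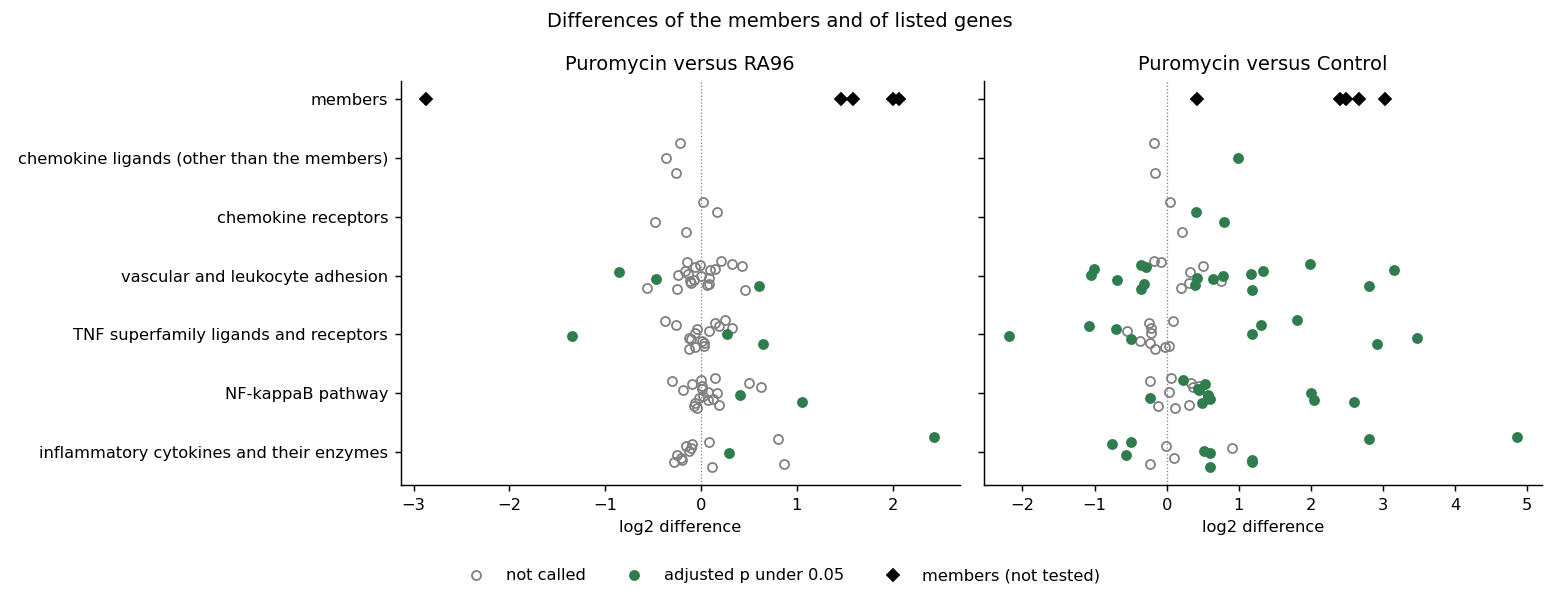
Log2 differences of the 5 genes (diamonds, not tested) and of listed genes of related families (1 circle per gene, filled where limma's adjusted p was under 0.05) in Puromycin versus RA96 and Puromycin versus Control. In the left panel 4 diamonds lie between 1.46 and 2.06 and Ppbp at -2.87, and among the listed genes only Ptgs2 (2.44) exceeds that upper range.

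Markers of other cells that can express these genes were read alongside. Between Puromycin and RA96 none of 6 macrophage and leukocyte markers, none of 4 osteoblast markers and none of 9 fibroblast and mesenchyme markers was called (at an unadjusted p under 0.05 there were 0, 0 and 2). With the array set as a block 2 of the 6 macrophage and leukocyte markers rose, and of the 9 fibroblast and mesenchyme markers 2 rose and 2 fell. Of 8 pluripotency markers 1 fell, Sall4, a pluripotency factor named after its values were seen, at -0.11 ± 0.30 in Puromycin and 0.33 ± 0.21 in RA96 cells (difference -0.44 ± 0.12, adjusted p = 0.0275). Sox2 did not pass, at -0.60 ± 0.55 in Puromycin and 0.63 ± 0.52 in RA96 cells (adjusted p = 0.168, and 0.0981 with the array set as a block). It was called lower after quantile normalization (adjusted p = 0.0211) and within the first set (-1.19, adjusted p = 0.000609). The same held with only the compared groups (0.0268), with array weights (0.0232) and without Control replicate 5 (0.00566). Nanog, another pluripotency factor, differed by 0.004 ± 0.16 (adjusted p = 0.995). The median difference over the 8 markers was -0.07, beside -0.01 over all genes. The part of undifferentiated cells in the members' differences was not tested. Of 7 endothelial markers 1 rose, Flt1, a VEGF receptor named after its values were seen (0.54 ± 0.10, adjusted p = 0.00151), with 0.20 within the first set, where the call was lost (adjusted p = 0.432), and 0.75 within the second. The Flt1 groups overlapped, and the median difference over the 7 endothelial markers was -0.24. Only 2 megakaryocyte and platelet markers were measured, and of these Thbs1, a thrombospondin that smooth muscle also makes, rose (1.06 ± 0.16, adjusted p = 0.00017, with 1.54 within the second set and 0.48, no longer called, within the first), while Ppbp was lower. The mean log2 ratio over the macrophage markers ranged from -2.03 to -0.59 on Puromycin arrays and from -2.04 to -0.77 on RA96 arrays, that over the endothelial markers from -1.05 to -0.59 and from -0.85 to -0.57, and that over 13 smooth muscle markers from -0.43 to 0.70 and from -0.40 to 0.52. Log ratios hold no absolute level, so no marker can be said to be absent, and the part of other cells in the members' differences was not tested.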

How the data were processed

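RNA of A404 cells (Cy5) and of pooled embryos (Cy3) was hybridized without a dye swap, and slides were quantified with Agilent Feature Extraction A.6.1.1, per the labels. Each deposited value is a log ratio for 1 probe on 1 array, taken here as log10 from its range. Base, centring and direction are not stated, and the direction was taken from the dyes. Values were divided by 0.301 to give log2 ratios. Of 21446 rows, 1166 with no gene and at most 6 digits on every array were left out as control-like. The 11100 probes with 1 symbol were averaged into 8683 genes. The 8738 probes without a symbol and the 442 with several stayed as single rows, which gave 17863 rows in all. Intensities were not used, so no detection limit is given.

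All 23 arrays entered a single group-means model (limma 3.58.1 under R 4.3.3). Calls are rows whose Benjamini-Hochberg p, adjusted over the whole table, was under 0.05. The fit was tested on simulated data. Array sets are the sign of the first principal component of deviations from group means, so fits that use them draw on the same values they test. The 5 genes and the lists (130 of 291 genes measured) were chosen with earlier results of these data known. Named are the 5 genes, their partners, Acta2, Cnn1, Myh11, Nanog and Sox2, up to 3 called genes each way per list without overlap, and the 4 nearest profiles per gene, and some lists' genes are only counted. Sequences are from RefSeq (GRCm38.p6). No 2 arrays held identical values. Alternatives were other normalizations, single probes, blocks, weights, variance settings and arrays left out.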

Additional observations from a re-analysis of the deposited data

Results flagged for a closer look

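In the Control group 2 arrays stood apart from the rest of their group for a gene described here, out of 20 combinations of gene and group examined, and chance flags about 1 in 20. For Ccl2, Control replicate 5 lay at -1.32 while the other 5 arrays ran from -0.53 to -0.20. For Vcam1, Control replicate 3 lay at -3.76 while the others ran from -3.09 to -2.83. Without it the Vcam1 difference of Puromycin from Control was 2.34, and 2.48 with it.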

How the results depend on the processing

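Of 855 values of the 5 genes' differences recomputed under alternatives, 836 moved by less than the spread between replicates, 19 moved by more and 0 changed direction where the groups did not overlap. Within the first array set the differences that moved were, for Puromycin versus RA96, 0.64 (Cxcl12) and -3.65 (Ppbp). For RA96 versus Control they were 1.45 (Cxcl12) and 4.44 (Ppbp), and for RA96 versus RA48 0.53 (Ccl2), 1.97 (Cxcl12), 3.23 (Ppbp) and 1.56 (Vcam1). Within the second set they were 1.98 (Cxcl12, Puromycin versus RA96), 2.56 (Ppbp, RA96 versus Control), 0.46 (Vcam1, RA96 versus RA48) and 0.22 (Vcam1, RA48 versus Control). Quantile normalization gave 0.49 for Vcam1 in RA96 versus Control. Array weights, whose estimation did not converge, gave 1.23 for Cxcl12 in RA96 versus RA48 and -0.62 for Vcam1 in RA48 versus Control. The single probes 560 and 18208 of Cxcl12 gave 1.93 and 2.87 in Puromycin versus Control, and 0.54 and 1.34 in RA96 versus Control. Single probes also turned the direction of Cd44 (-0.22) and Itga3 (0.033) in Puromycin versus RA96, and of Itga3 (-0.10) and Lifr (0.13) in Puromycin versus Control. Rows called in Puromycin versus RA96 numbered 942, against 2281 with the array set as a block, 1691 and 1638 within the first and second set, and 2609 with array weights. In RA96 versus RA48 they numbered 3540, against 5726, 6697, 2267 and 10273 under the same settings, and between 2227 (without RA48 replicate 3) and 4198 with 1 array left out. In RA48 versus Control they numbered 4642, against 7029 with the set block and 8135 with array weights. Listed genes higher in Puromycin than in RA96 numbered 7, against 11, 4, 12 and 11 under those 4 settings, and between 4 (without RA96 replicate 5) and 8 with 1 array left out. Those lower numbered 3, against 5 with the set block and 7 within the first set. The cause of these changes was not tested. Among all arrays of the other groups, 4 of 23 arrays correlated best with one of their own replicate number, taken on deviations from group means. Within a set, pairs of the same number had a median r of 0.41 and pairs of other numbers 0.42. These values cannot exclude a pairing between particular groups. The numbers did follow the 2 array sets, except for RA96 replicate 2. With the replicate block 1784 rows and 5 lower listed genes were called in Puromycin versus RA96. Signal over background was not analysed here, so dim spots cannot be told from bright ones.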
